A study of Mus musculus with 18 samples.

Results

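miR-221 and miR-222 are a pair of microRNAs (miRNAs, short RNAs that repress messenger RNAs) made from neighbouring genes on the mouse X chromosome. They are represented here by 3 of the 1978 mature miRNAs in a count table of 203513 features, namely mmu-miR-221-3p, mmu-miR-221-5p and mmu-miR-222-3p, which were taken by name from the miRNA rows. These members were chosen by their values in these same libraries, in which they stood higher in microglia of the mutant mice, so their levels and fold changes are given as a description with no test.

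Small RNA was sequenced from brain cells of C57BL/6 mice aged 10 months, which were either wild type (WT) or homozygous Atxn2-CAG100-KIN (KIN). The allele carries an expanded CAG repeat, knocked into the gene of ataxin-2, and models spinocerebellar ataxia type 2. It is a germline allele, so that every cell type of a KIN brain carries it. Single brains were dissociated and passed over magnetic beads in sequence, which held microglia by CD11b, a surface protein of other myeloid cells too, and then astrocytes by ACSA-2, while neurons were what remained unbound after other cells, with CD31-bearing endothelial cells among them, had been held back. Each of the 6 groups (astrocytes, microglia and neurons of either genotype) held 3 libraries, 18 in all.

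A miRNA gene is transcribed as a hairpin that Drosha and Dicer cut into a short duplex, from which an arm, 5p or 3p, is loaded into an Argonaute protein. The loaded arm finds messenger RNAs mainly through its seed, the bases from position 2 to 8, which pair with sites in 3′ untranslated regions. miR-221 and miR-222 are known as repressors of Cdkn1b (p27, an inhibitor of cyclin-dependent kinases) and of Kit (the receptor of stem cell factor), and as abundant miRNAs of vascular cells and of gliomas.

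The mature sequences are shown 5′ to 3′, because the seed is what makes 2 of the members a family. Letters are those of RefSeq (tables of build GRCm38.p6) and of the deposited table alike, and capitals mark the seed.
mmu-miR-221-3p: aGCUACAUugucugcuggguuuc
mmu-miR-222-3p: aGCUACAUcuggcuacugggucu
mmu-miR-221-5p: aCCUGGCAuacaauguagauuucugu
The 3p arms of miR-221 and miR-222 shared the seed and their first 8 bases, and 11 of 23 positions in all. Past the seed they parted at once, with U9C, G10U and U11G as the first changes from miR-221-3p to miR-222-3p (positions counted from the 5′ end), so reads of the arms can be told apart. mmu-miR-221-5p, the opposite arm of the same hairpin as miR-221-3p, has another seed.

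The hairpins from which they are cut are printed to show where the arms lie, with the counted mature arms in capitals (RefSeq letters).
Mir221 hairpin: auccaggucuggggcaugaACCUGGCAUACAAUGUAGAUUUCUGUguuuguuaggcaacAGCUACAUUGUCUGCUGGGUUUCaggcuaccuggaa
Mir222 hairpin: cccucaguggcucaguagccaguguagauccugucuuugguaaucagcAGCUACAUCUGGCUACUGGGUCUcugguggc
In GRCm39, the assembly that mm39 also names, the Mir221 hairpin of 95 bases lies at chrX:19012533-19012627 and the Mir222 hairpin of 79 bases at chrX:19013132-19013210, both on the minus strand and 504 bases apart. The GENCODE vM39 annotation places both inside the long noncoding RNA gene Gm26652 (chrX:18842603-19104149, minus strand), which had 0 counts in every library.

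A further 2 mature rows belong to the family. mmu-miR-222-5p, the other arm of Mir222, had 4 counts over the 18 libraries, 1 in WT astrocytes, 2 in KIN astrocytes and 1 in KIN microglia. mmu-miR-1928, the remaining row with the same seed, had 0 counts throughout. Its listed sequence of 17 bases is shorter than 20 bases, the shortest read kept by the authors.

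The libraries held between 3144427 and 4316748 counts in the glial fractions and between 1211118 and 2427384 in neurons. Levels are given in CPM, counts per 1000000 counts of the library. Mature miRNA made up 6.48% ± 1.66 (SD, n = 3) of counts in WT and 9.30% ± 0.97 in KIN astrocytes, 5.42% ± 0.50 and 7.56% ± 1.47 in microglia, and 1.33% ± 0.53 and 1.69% ± 0.41 in neurons. Fragments of microglial genes (Aif1, Tmem119, Cx3cr1, P2ry12 and Csf1r) summed to 73.8 CPM in WT microglia against 0.604 in WT astrocytes, and those of astrocyte genes (Aqp4, Gfap, Slc1a2, Slc1a3 and Aldh1l1) to 194 CPM in WT astrocytes against 6.49 in WT microglia. The neuronal label was less clear, since miR-124-3p, miR-128-3p and miR-138-5p, which mark neurons, summed to 135 CPM in WT neurons and to 1984 CPM in WT astrocytes. The fragments of neuronal genes (Map2, Rbfox3, Snap25, Tubb3 and Syt1) summed to 24.9 and 15.6 CPM in these groups. Map2 (13.6 against 5.53 CPM) and Tubb3 (7.67 against 0.890) were higher in WT neurons. Snap25 (1.17 against 4.77), Syt1 (2.28 against 3.13) and Rbfox3 (0.170 against 1.26) were higher in WT astrocytes. Rbfox3, which encodes the neuronal protein NeuN, had 1 count over the WT and 0 over the KIN neuronal libraries, and 12 over the WT astrocyte libraries. Atxn2 itself had between 0 and 10 counts per library, and since the allele alters its repeat, this level does not check the genotype. Xist, which is transcribed from the inactive X of female cells, stood between 1.27 and 2.13 CPM in KIN replicate 1 of the fractions and between 7.59 and 36.3 CPM in the other 15 libraries, whereas the study describes WT and KIN pairs of matched sex, most of them male. Low Xist was thus seen in fewer libraries than that description would give, WT libraries included, and the labels used here give no sex. Y-linked genes (Ddx3y, Eif2s3y, Kdm5d and Uty) summed to between 0.288 and 8.27 CPM over all libraries, from 1 to 26 counts each. In KIN replicate 1 they summed to 2.04 (astrocytes), 3.18 (microglia) and 6.40 CPM (neurons), the highest of the KIN libraries in each fraction. WT replicate 2 was the lowest of the WT libraries in each (2.01, 0.288 and 2.04 CPM). It had the highest WT Xist in astrocytes and neurons (25.6 CPM each) but not in microglia (10.4 CPM). Because the members are X-linked, their KIN values are also given without KIN replicate 1.

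mmu-miR-221-3p, the more abundant of the members in glia, reached its highest group mean in KIN microglia. In WT microglia it stood at 68.5, 41.7 and 70.9 CPM in replicates 1 to 3, from 238, 145 and 260 counts. In KIN microglia it stood at 120.1, 191 and 153 CPM, from 378, 826 and 659 counts. Each KIN library thus lay above each WT library, with group means of 60.4 ± 16.2 and 155 ± 35.7 CPM (SD, n = 3 each). The edgeR fit of the 6 microglia libraries gave a log2 fold change of 1.59 ± 0.23 (SE), or 3.01-fold, and 1.67 without KIN replicate 1. The libraries are bulk fractions, in which a change in the number of cells of a type and a change in RNA per cell cannot be told apart.

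mmu-miR-222-3p followed the same order in microglia with a wider gap. It stood at 28.8, 25.3 and 31.4 CPM in the WT libraries and at 62.9, 112 and 97.8 CPM in the KIN libraries. The group means were 28.5 ± 3.02 and 90.8 ± 25.1 CPM, and the lowest KIN value was above the highest WT value. The log2 fold change was 1.88 ± 0.24 (SE), or 3.68-fold, and 2.02 without KIN replicate 1.

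mmu-miR-221-5p, the minor arm, was measured from few counts. It had 3, 3 and 7 counts in the WT microglia libraries and 15, 17 and 30 in the KIN ones. These are 1.21 ± 0.60 and 5.23 ± 1.57 CPM, again without overlap. Its log2 fold change of 2.31 ± 0.50 (SE) carried the largest error of the members in microglia and was 2.29 without KIN replicate 1.

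All 3 members therefore did not overlap between genotypes in microglia. Among all features tested there, 8.12% were higher in KIN without overlap, and among mature miRNAs 21.7%. A feature was called where its log2 fold change reached 1 in either direction and its adjusted p did not exceed 0.05 over all features tested (edgeR with Benjamini-Hochberg adjustment). The 3 members were called higher, beside 1.42% of the 4940 features and 8.38% of the 382 mature miRNAs tested in microglia, and as the members were chosen on this contrast nothing is read from that count. mmu-miR-221-5p also passed the filter on low counts (at least 5 counts in at least 2 libraries) only through the KIN libraries, where it stood high. By fold change miR-222-3p and miR-221-3p took places 19 and 27 among these miRNAs. The call depended on single libraries, since 0 of the 3 members were called without WT replicate 1 or 3 or KIN replicate 2 or 3, fits in which between 0 and 12 features were called in all. Without WT replicate 2 or KIN replicate 1, the 3 members were called, beside 316 of 4856 and 138 of 4913 features called higher.

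**Figure D1:**
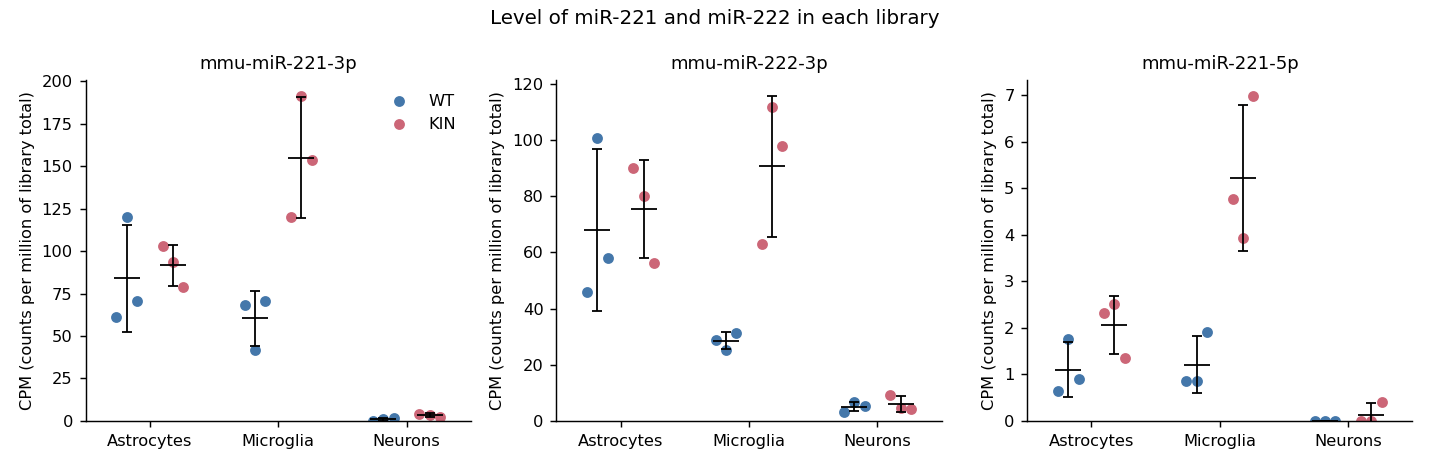
Level of mmu-miR-221-3p, mmu-miR-222-3p and mmu-miR-221-5p in CPM (counts per 1000000 counts of the library, linear axes from 0) in the 18 libraries, with points in the order of replicates 1 to 3 and black lines for the mean ± SD of 3 libraries. KIN microglia lie above WT microglia in each panel (155 against 60.4 CPM on average for miR-221-3p), the astrocyte groups overlap, and neurons lie near 0.

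Because mature miRNA as a class took a larger mean share of the KIN glial libraries, the members were also scaled to the mature miRNA alone, as counts per 1000000 counts of mature miRNA. On this scale mmu-miR-221-3p was at 1325.5, 820.9 and 1183.1 in WT microglia and at 2048.5, 2263.3 and 1835.3 in KIN microglia. mmu-miR-222-3p was at 526 ± 29.5 and 1188 ± 125 (SD, n = 3 each). Both 3p arms again did not overlap, beside 12.6% of mature miRNAs that were higher without overlap on this scale. With TMM scaling factors (which set the typical feature equal between libraries) taken from mature miRNAs alone, the log2 fold changes in microglia were 1.15 for miR-221-3p, 1.44 for miR-222-3p and 1.88 for miR-221-5p. The members thus stood above the median mature miRNA, whose log2 fold change in microglia was 0.46, while the median of all features tested was −0.11.

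In astrocytes the members overlapped between genotypes in CPM, and the sign of the difference in the 3p arms depended on the scale. mmu-miR-221-3p stood at 61.4, 120.1 and 70.7 CPM in WT and at 103, 93.4 and 79.0 CPM in KIN astrocytes. mmu-miR-222-3p stood at 45.8, 101 and 58.0 CPM in WT and at 90.2, 80.0 and 56.2 CPM in KIN. WT replicate 2 was the highest WT library for both, and it lay above each KIN library. The log2 fold changes were 0.24 ± 0.27 and 0.25 ± 0.31 (SE), 0.17 and 0.14 without KIN replicate 1, and they were −0.37 and −0.34 with factors from mature miRNAs. Without WT replicate 1, that of miR-222-3p was −0.01.

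Set against mature miRNA counts, miR-221-3p in KIN astrocytes lay below WT instead. It was at 1215.5, 1445.9 and 1161.9 in the WT and at 994.9, 1022.6 and 937.3 in the KIN libraries, while miR-222-3p was at 906.9, 1213.0 and 952.5 in WT and at 871.2, 876.1 and 666.3 in KIN. Both 3p arms had no overlap on this scale, with KIN lower, as had 18.4% of mature miRNAs, while in CPM 0 of the 3 members were without overlap, beside 34.7% of mature miRNAs that were higher. The median mature miRNA had a log2 fold change of 0.58 in astrocytes, and by fold change miR-221-3p and miR-222-3p took places 304 and 302 of 418. mmu-miR-221-5p had 2, 7 and 3 counts in WT and 8, 9 and 5 in KIN astrocytes, and its log2 fold change was 0.95 ± 0.55 (SE). None of the members was called in astrocytes, where 1.79% of all features and 11.2% of mature miRNAs were called higher.

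**Figure D2:**
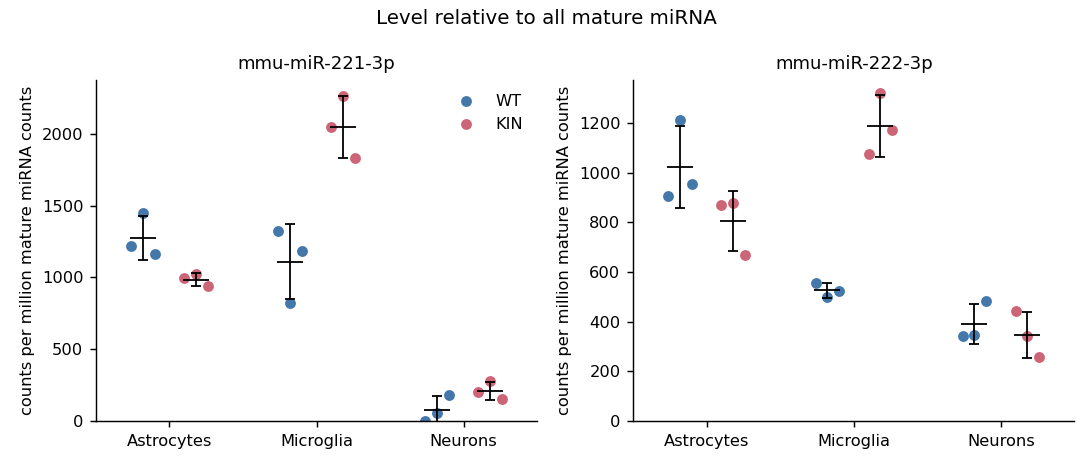
mmu-miR-221-3p and mmu-miR-222-3p as counts per 1000000 counts of mature miRNA (linear axes from 0) in each library, points in the order of replicates 1 to 3, black lines mean ± SD of 3 libraries. On this scale KIN microglia lie above WT (2049 against 1110 for miR-221-3p) and KIN astrocytes lie below WT (985 against 1274), a sign opposite to that of the mean CPM in astrocytes.

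Neuronal libraries held few reads of the members. mmu-miR-221-3p had 0, 2 and 3 counts in WT and 10, 9 and 6 counts in KIN neurons. A count of 0 in a library of 1211118 counts allows a level of up to 2.48 CPM. The summed counts, 5 in WT and 25 in KIN, gave a ratio of KIN over WT of 3.26 after division by the library totals, with an exact 95% interval from 1.23 to 10.9 that covers counting error only. It passed the filter on low counts only through the KIN libraries.

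mmu-miR-222-3p was the more abundant member in neurons and showed no such gap. It had 4, 13 and 8 counts in WT and 22, 11 and 10 in KIN neurons. The ratio of the summed counts, 25 and 43, was 1.12 (exact 95% interval 0.670 to 1.92, counting error only). The edgeR log2 fold changes were 1.68 ± 0.76 (SE) for miR-221-3p and 0.21 ± 0.50 for miR-222-3p, and without KIN replicate 1 they were 1.54 and −0.22. mmu-miR-221-5p had 0 counts in WT and 1 count in KIN neurons and was not tested. The listed CPM values of miR-221-3p did not overlap between genotypes, as was so for 4.61% of 217 mature miRNAs that were higher in KIN, but the 2.48 CPM allowed by the count of 0 exceeds KIN replicate 3 at 2.47 CPM, so no separation is read from them. In neurons 0 of 4535 features were called, or 0%. The myeloid miRNAs miR-142a-3p, miR-142a-5p and miR-223-3p summed to 42.9, 225 and 143 CPM in the WT and to 377, 313 and 173 CPM in the KIN neuronal libraries, and their part in the values of miR-221-3p there was not tested.

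**Figure D3:**
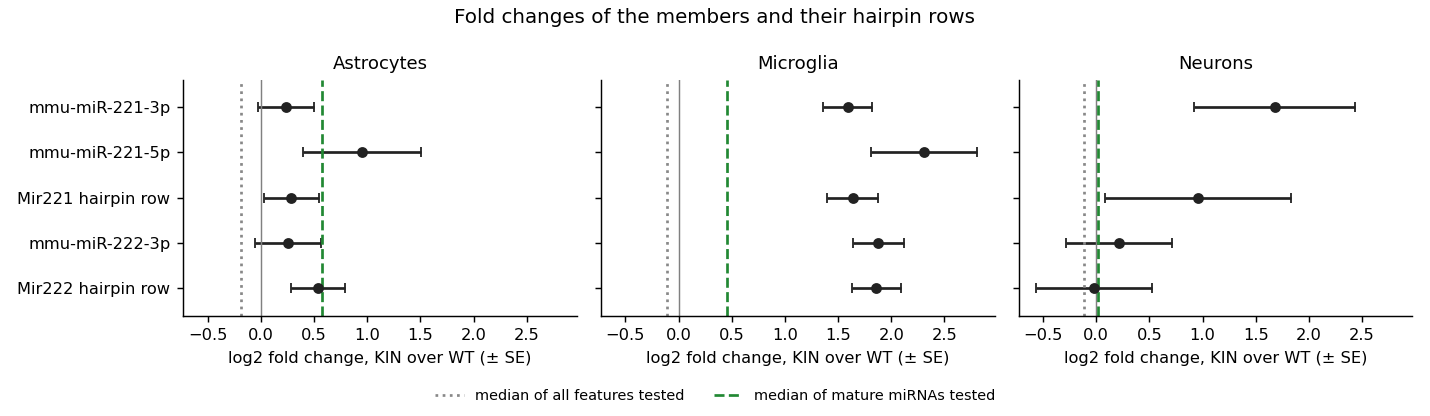
Log2 fold change of KIN over WT (points) with its standard error (bars) in each fraction, for the members and for the hairpin rows Mir221 and Mir222, from an edgeR fit of 6 libraries a fraction. Dotted and dashed lines mark the medians of all features tested and of mature miRNAs tested. In microglia the 5 values lie between 1.59 and 2.31, to the right of both lines, while in astrocytes the 3p arms (0.24 and 0.25, with the sign turned when factors come from mature miRNAs) lie between the lines.

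The order of the levels over the 6 groups differed between the 3p arms. For mmu-miR-221-3p, KIN microglia (155 ± 35.7 CPM) were followed by KIN astrocytes (91.8 ± 12.1), WT astrocytes (84.1 ± 31.5), WT microglia (60.4 ± 16.2), KIN neurons (3.48 ± 0.92) and WT neurons (0.995 ± 0.98). The astrocyte groups overlapped, as did WT astrocytes and WT microglia. KIN microglia lay above KIN astrocytes, but their lowest library (120.07 CPM) was just under WT astrocyte replicate 2 (120.08 CPM). WT microglia lay above KIN neurons, and no separation is read between the neuronal groups. For mmu-miR-222-3p, KIN microglia (90.8 ± 25.1 CPM), KIN astrocytes (75.4 ± 17.4) and WT astrocytes (68.2 ± 28.9) overlapped with each other. WT microglia (28.5 ± 3.02) lay apart from these and from KIN and WT neurons (6.01 ± 2.93 and 5.06 ± 1.68), which overlapped.

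Between WT fractions, the members did not share 1 pattern. The fit used had no term for the brain, so its standard errors treat fractions of the same brain as independent. In a fit of all 18 libraries, WT microglia over WT astrocytes gave log2 differences of −0.47 ± 0.34 (SE) for miR-221-3p, −1.23 ± 0.37 for miR-222-3p and 0.13 ± 0.63 for miR-221-5p. In CPM only miR-222-3p of the members had no overlap between these fractions, as had 39.4% of 485 mature miRNAs lower in microglia. The difference of miR-221-3p had the sign of WT replicate 2 of astrocytes, without which it was 0.09. WT neurons over WT astrocytes gave −6.61 ± 0.53 for miR-221-3p and −4.06 ± 0.45 for miR-222-3p, and both were lower in neurons without overlap, as were 60.8% of mature miRNAs. No difference is given for miR-221-5p, which had 0 counts in the WT neuronal libraries and in WT astrocytes stood below the 2.48 CPM that a count of 0 allows in the smallest of them. Against mature miRNA, of which the neuronal libraries held less, the gap was smaller, −4.26 for miR-221-3p and −1.64 for miR-222-3p. The rank of miR-221-3p by mean CPM among mature miRNAs was 79 in WT astrocytes, 85 in WT microglia and 265 in WT neurons, while the KIN groups had ranks of 89, 60 and 142. For miR-222-3p the WT ranks were 84, 121 and 134 and the KIN ranks 99, 76 and 112.

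Ratios taken inside a library do not depend on the scaling between libraries, and they showed how the 2 loci and the 2 arms stood to each other. Of the reads of both 3p arms, miR-222-3p made up 44.5% ± 1.53 in WT and 44.8% ± 2.82 in KIN astrocytes (SD, n = 3 each). In microglia its share was lower, 29.6%, 37.8% and 30.7% in WT and 34.4%, 36.9% and 38.9% in KIN. In both fractions the genotypes overlapped. In neurons the share was 83.3% of 30 reads in WT (exact 95% binomial interval 65.3% to 94.4%) and 63.2% of 68 reads in KIN (50.7% to 74.6%). The neuronal libraries thus had more miR-222-3p than miR-221-3p, the reverse of glia.

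The 5p arm stayed a small part of the mature miR-221 reads. It took 1.03%, 1.44% and 1.27% in WT and 2.21%, 2.62% and 1.67% in KIN astrocytes, without overlap, and 1.24%, 2.03% and 2.62% in WT and 3.82%, 2.02% and 4.35% in KIN microglia, with overlap. Each of these rests on 2 to 30 reads of the 5p arm, and the exact 95% interval of a single astrocyte library reached from 0.12% to 3.66% in WT replicate 1. The exact intervals of single libraries overlapped between the genotypes in both fractions.

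Reads that fell on the hairpins but were not placed on a mature arm were counted on the Ensembl rows Mir221 and Mir222, and their levels ran like those of the mature arms. In microglia the Mir221 row went from 35.6 ± 10.5 CPM in WT to 94.0 ± 17.5 in KIN (log2 fold change 1.64 ± 0.24, SE) and the Mir222 row from 24.0 ± 2.71 to 75.1 ± 17.0 (1.86 ± 0.23). In astrocytes the log2 fold changes of these rows were 0.29 ± 0.26 and 0.53 ± 0.25, and in neurons 0.96 ± 0.87 and −0.02 ± 0.54. The hairpin row took 36.5% ± 0.84 of the counts at Mir221 in WT and 37.1% ± 0.96 in KIN microglia, and 45.7% ± 0.33 and 45.5% ± 1.78 of those at Mir222. Mature and hairpin rows of 1 locus come from the same library, and so are not separate observations of a change.

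**Figure D4:**
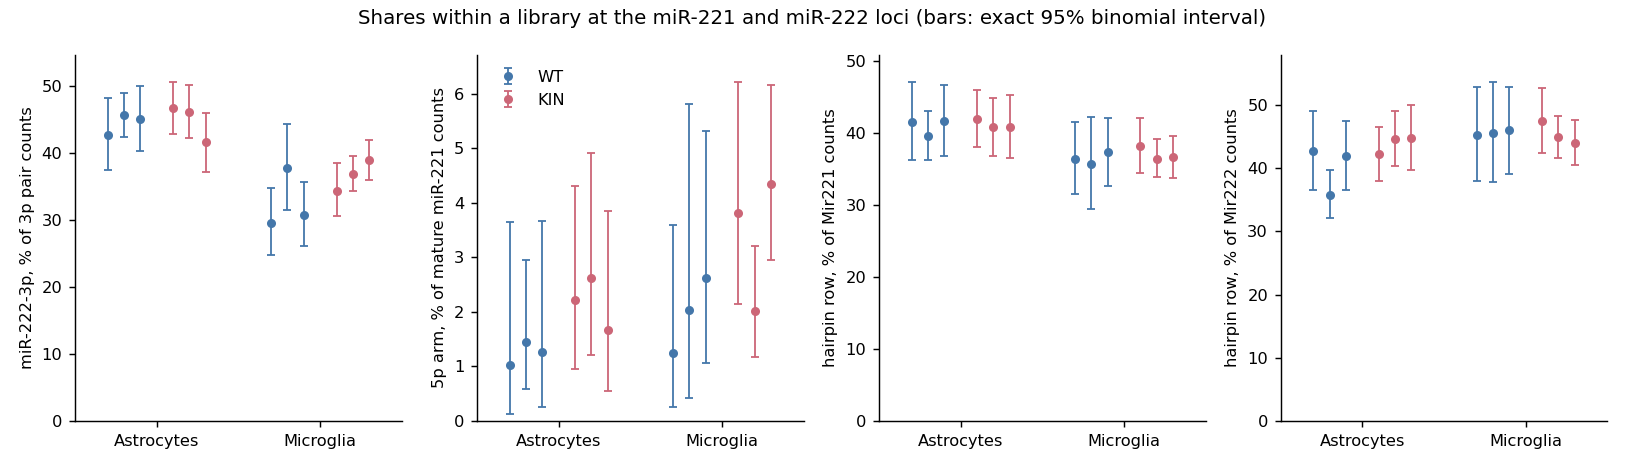
Shares of counts within single libraries of astrocytes and microglia, in percent (linear axes from 0), each point with its exact 95% binomial interval, in the order of replicates 1 to 3. The panels show miR-222-3p among both 3p arms (near 45% in astrocytes, lower in microglia), the 5p arm among mature miR-221 counts, and the hairpin rows among all counts of Mir221 and of Mir222, which lie between 35.7% and 47.5% in microglia.

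The cell type markers in the microglia libraries were set beside the members. The myeloid miRNAs summed to 3046, 2835 and 3389 CPM in WT and to 3097, 5914 and 5079 CPM in KIN microglia, so they overlapped between genotypes and were highest in KIN replicates 2 and 3. Of these, 0 of 3 were called, with miR-142a-3p at a log2 fold change of 0.91 ± 0.22 (SE, edgeR adjusted p = 0.0473), under the fold limit. In relation to the most abundant of them, miR-142a-3p, there were 27.4, 18.2 and 26.7 counts of miR-221-3p per 1000 counts in WT and 45.9, 37.6 and 34.3 in KIN microglia. For miR-222-3p this ratio was 11.5, 11.1 and 11.8 in WT and 24.0, 22.0 and 21.9 in KIN, a ratio chosen after the values were seen and built from the values that chose the members. The part of a different amount of myeloid RNA in their levels was not tested. Vascular cells are known to contain miR-221 and miR-222. The endothelial miRNAs miR-126a-3p and miR-126a-5p summed to between 215 and 265 CPM in WT and between 118 and 236 CPM in KIN microglia, and the mural miRNAs (miR-143-3p, miR-145a-5p and miR-145a-3p, of smooth muscle and pericytes) to between 146 and 206 and between 60.0 and 137 CPM. The part of vascular cells in the levels of the members was not tested. The erythroid miRNAs miR-451a, miR-144-3p and miR-486a-5p summed to 28.6, 131 and 36.8 CPM in KIN against 17.3 to 22.2 CPM in WT microglia, with 0 of 2 tested called, and their part in the result was not tested. Neuronal miRNAs stood at 60.7 to 159 CPM in WT and 47.0 to 55.1 CPM in KIN microglia, and fragments of the microglial genes named above at 57.9 to 84.4 and 26.7 to 37.5 CPM. Of these lists, the neuronal miR-124-3p (log2 fold change −1.28 ± 0.31, SE, edgeR adjusted p = 0.0485) and 1 of 12 transcripts tested of the microglial genes, of Cx3cr1, the fractalkine receptor (−1.60 ± 0.37, edgeR adjusted p = 0.0431), were called lower in KIN microglia. Among all features tested there, 2.94% were called lower.

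In astrocytes the oligodendrocyte miRNAs (miR-219a-5p, miR-219a-2-3p and miR-338-3p) summed to 2323 ± 647 CPM in WT and 4164 ± 888 in KIN (SD, n = 3 each), and the myeloid ones to 11.6 ± 1.27 and 34.9 ± 12.2 CPM. Of each of these miRNA lists 1 of 3 was called higher, beside 11.2% of all mature miRNAs tested. These were miR-219a-5p (log2 fold change 1.11 ± 0.21, SE, edgeR adjusted p = 0.0151) and miR-142a-3p (1.96 ± 0.33, edgeR adjusted p = 0.00975). The fragments of astrocyte genes summed to 194 ± 11.6 CPM in WT and 68.6 ± 10.2 CPM in KIN. Of their 14 transcripts tested, 4 were called lower, all of Slc1a2, a glutamate transporter, beside 6.39% of all features. The endothelial miRNAs summed to 451 ± 109 CPM in WT and 356 ± 120 in KIN astrocytes, more than in WT microglia. Fragments of the endothelial genes Cldn5, Pecam1, Flt1 and Kdr summed to 35.5 CPM in WT astrocytes, 84.3 in WT microglia and 61.5 in WT neurons. Pecam1 made up most of each sum (33.2, 82.3 and 60.5 CPM). Flt1 (1.51, 1.22 and 0.825 CPM) and Cldn5 (0.251, 0 and 0 CPM) were highest in WT astrocytes, and Kdr (0.564, 0.828 and 0.170 CPM) in WT microglia. The part of these cells in the level of the members was not tested.

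The miRNAs whose levels over the 6 groups ran most like the members were named by the root mean square difference of the group means of log2(CPM + 1), each centred on its own mean. Of 228 mature miRNAs with a mean of at least 5 CPM, the nearest to miR-221-3p were let-7i-5p (0.45), miR-107-3p (0.51), miR-24-3p (0.53), miR-140-5p (0.61) and miR-324-5p (0.61). The nearest to miR-222-3p were miR-98-5p (0.30), let-7f-5p (0.33), let-7g-5p (0.33), miR-345-5p (0.36) and miR-22-5p (0.38). The lists had no miRNA in common. miR-221-3p and miR-222-3p themselves differed by 0.90, against a median of 1.79 between miR-221-3p and all candidates. Either differed less from its 5 nearest, but these were picked as the smallest of 228 differences, so nothing is read from that. The widest gap between the 3p arms was in WT neurons (−3.89 against −2.26). There miR-221-3p had only 0, 2 and 3 counts. let-7i-5p, the nearest to miR-221-3p, had mean levels of 644 and 1300 CPM in WT and KIN microglia, and miR-98-5p, the nearest to miR-222-3p, of 43.6 and 91.5 CPM. These are descriptions over 6 group means that share libraries and depth.

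**Figure D5:**
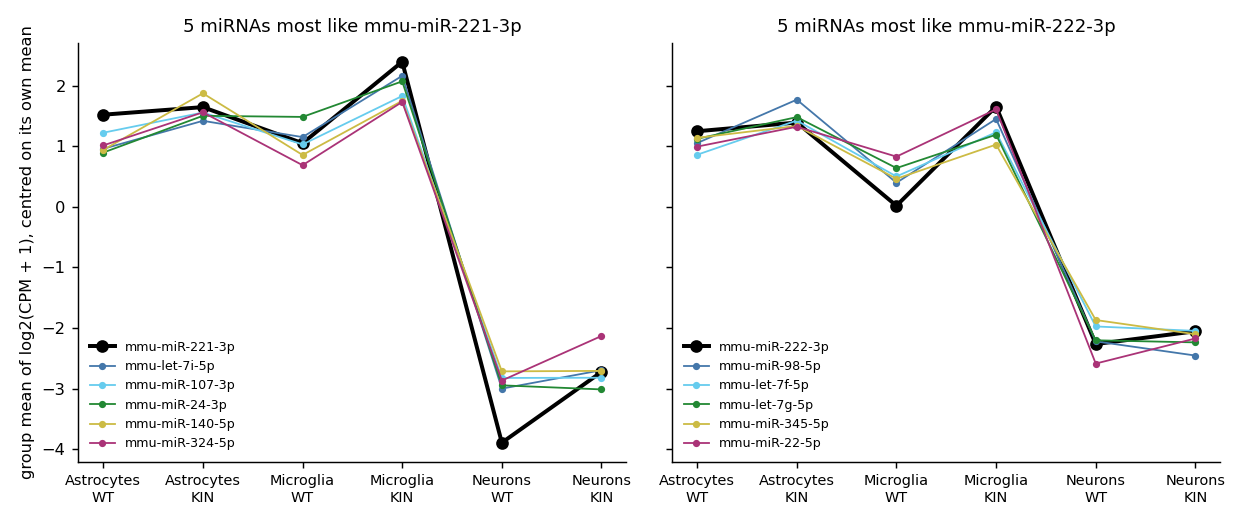
Group means of log2(CPM + 1), each centred on the mean of its own 6 values, for mmu-miR-221-3p (left, black), mmu-miR-222-3p (right, black) and the 5 mature miRNAs nearest to each. The lines drop in neurons in both panels, and miR-221-3p falls furthest there, to −3.89 in WT neurons, from 0, 2 and 3 counts. miR-222-3p dips in WT microglia (0.02) between astrocytes and KIN microglia.

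The Mir221 and Mir222 genes are X-linked, so the other miRNAs with a hairpin only on that chromosome were counted too. Of 154, 81 had a count. In microglia 2 of 41 tested were called higher, beside 8.38% of all mature miRNAs, and 0 lower, namely miR-98-5p (log2 fold change 1.27 ± 0.25, SE, edgeR adjusted p = 0.0268) and miR-1298-5p (1.43 ± 0.35, edgeR adjusted p = 0.0489). Their median of 0.52 lay near that of all mature miRNAs, 0.46. In astrocytes 8 of 43 tested were called higher, beside 11.2% of all mature miRNAs, and 0 lower, with a median of 1.03 beside 0.58. The first 6 of these by adjusted p were miR-532-3p, miR-362-3p, miR-500-3p, miR-542-3p, let-7f-2-3p and miR-450a-5p, with log2 fold changes from 1.16 to 3.64. Without any single astrocyte library other than WT replicate 2, 0 were called, and 23 were called without it. The fit without WT replicate 2 called 1527 of 5363 features in all, against 41 to 78 features in the others. In microglia the count was 0 without WT replicate 1 or 3 or KIN replicate 2 or 3 and 5 without WT replicate 2. That last fit called 940 of 4856 features. In neurons 0 of 21 were called, and DESeq2 and an edgeR p of at most 0.05 before adjustment gave 0 too.

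For the proteins that cut and load miRNAs, 14 genes were followed, from Drosha and Dgcr8 (the nuclear cut), Xpo5 and Ran (export) and Dicer1, Tarbp2 and Prkra (the cytoplasmic cut) to the Argonautes Ago1 to Ago4 and their partners Tnrc6a, Tnrc6b and Tnrc6c. In astrocytes 7 of their transcripts were tested, in microglia 8 and in neurons 4, and edgeR and DESeq2 called 0 in each. By an edgeR p of at most 0.05 before adjustment the counts were 1, 1 and 0. Over all features, edgeR called 1.79% higher and 6.39% lower in astrocytes, 1.42% and 2.94% in microglia, and 0% in neurons. With so few transcripts tested, nothing is read from the absence of calls. The medians were −0.39, 0.13 and −0.16 on the log2 scale, beside −0.19, −0.11 and −0.11 over all features. Their counts are fragments in a small RNA library.

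Sites for the shared seed are shown in the best known targets, from GRCm39 and on the plus strand, with the 7 letters that pair with the seed in capitals.
Cdkn1b, chr6:134901380-134901402: tctaaaagcattggATGTAGCat
Kit, chr5:75815638-75815660: atgatgggagatatATGTAGCaa
Kit, chr5:75817169-75817191: ttgtaaatattgaaATGTAGCaa
Each site lies in the 3′ untranslated region of its gene and is followed by an A. ATGTAGC, on the strand of the transcript alone, was present in the 3′ untranslated region of 10 of 16 genes listed as reported targets of the family, or 62.5%, with 2 copies in Kit and in Ets1. It was present in 10.5% of 20708 genes with an annotated 3′ region and in 20.3% of the 2636 genes whose region was within 20% of the target median of 2819 bases. Foxo3, Icam1, Mgmt, Socs1 and Stat5a were among those with no such match.

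Fragments of the target genes were scarce. They summed to 18.8 ± 2.38 CPM in WT and 8.61 ± 2.74 in KIN astrocytes (SD, n = 3 each), to 13.0 ± 6.05 and 7.81 ± 2.70 in microglia, and to 19.3 ± 5.50 and 15.1 ± 4.07 in neurons. In microglia, where the members stood higher in KIN, 2 target transcripts could be tested and 0 were called, with edgeR or DESeq2 or by an edgeR p of at most 0.05 before adjustment, beside 2.94% of features called lower. Among them was Mgmt, a DNA repair enzyme (log2 fold change −0.92 ± 0.62, SE, edgeR adjusted p = 0.421), named after its values were seen. Cdkn1b had 11 counts over the WT and 16 over the KIN microglia libraries, and Kit had 4 and 0. At this depth a change in these targets was not detectable in microglia.

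In astrocytes 1 of 5 target transcripts tested was called, that of Timp3, an inhibitor of metalloproteinases. Over the libraries Timp3 had 61 counts in WT and 20 in KIN, 5.84 ± 1.13 and 1.84 ± 1.24 CPM. Its transcript had a log2 fold change of −1.98 ± 0.52 (SE, edgeR adjusted p = 0.0395), where 6.39% of all features were called lower. It was called in 1 of 6 fits that left out a library, the fit without WT replicate 2. In that fit 1527 of 5363 features were called. Cdkn1b had 19 counts over the WT and 4 over the KIN astrocyte libraries, and Kit had 2 and 2. Neither was among the transcripts tested there. In neurons 2 were tested, Cdkn1b at −0.14 ± 0.61 and Timp3 at −0.05 ± 0.77, and 0 were called, and DESeq2 and an edgeR p of at most 0.05 before adjustment gave 0 too.

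Over all protein-coding transcripts tested, those with the 7-letter site had a median log2 fold change of −0.51 in microglia (279 transcripts), against −0.33 for the 1043 without it. In astrocytes the medians were −0.77 over 349 and −0.63 over 1383 transcripts, and in neurons −0.22 over 238 and −0.22 over 1194. The difference of medians, site minus no site, was −0.17 in microglia and −0.14 in astrocytes, where the members did not share a direction across scalings. Transcripts with the site had longer 3′ untranslated regions, a median of 4408 against 2023 bases in microglia. Among transcripts without the site whose region lay between the length quartiles of those with it, a limit chosen after seeing the data, the medians were −0.38 in microglia (292 transcripts), −0.76 in astrocytes (445) and −0.36 in neurons (286). Against these the difference was −0.12 in microglia, −0.0013 in astrocytes and 0.14 in neurons, so it was smaller in both glial fractions and had no common sign. Called lower were 1 of the 279 and 1 of the 1043 in microglia, and 30 of the 349 and 98 of the 1383 in astrocytes. The median transcript of either kind had about 5 counts a library.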

How the data were processed

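Counts were analysed in 18 small RNA libraries, grouped by cell fraction and genotype from their titles. Per the submitters' processing notes and the study's methods, the authors trimmed reads with Cutadapt 4.6 (reads under 20 bases dropped), mapped them with Bowtie2 2.4.4 in local mode in successive rounds (mature miRNA, tRNA, piRNA, Ensembl noncoding and coding sequences, build mm39) and counted with HTSeq 2.0.2 without strand. The deposited counts are whole reads per feature, not normalized. The kit has molecular identifiers, but their collapsing is not described for these libraries, so intervals and floors (3 counts) cover counting error only. A further 36 columns of per-library values and the authors' own fold changes and p-values were not used.

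A quasi-likelihood model (edgeR 4.0.16 with limma 3.58.1, in R 4.3.3) was fitted to the 6 libraries of a fraction with genotype as the term, TMM factors and a filter of at least 5 counts in at least 2 libraries, and p-values were adjusted over all features tested (Benjamini-Hochberg). Fractions were compared in 1 fit of 18 libraries, with group as the only term. The fits were tested on simulated data. Shares have exact (Clopper-Pearson) 95% intervals. The members, lists and rules for named genes (members, hairpin rows, miRNAs with the same seed, called list transcripts, nearest 5 miRNAs, markers) were chosen with earlier results of these data known. Alternatives were DESeq2 1.42.0, library totals, factors from mature miRNA, no filter, 1 fit of all libraries, summing by gene, another site, a higher minimum, a replicate block and leaving out each library.

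Replicate numbers were taken to pair the WT fractions, which came from single brains by the study's methods. This pairing entered the replicate block only, not the fit of 18 libraries. Over features, the deviations of same-numbered libraries had correlations of 0.482, 0.447 and 0.144 between astrocytes and microglia and 0.231, 0.449 and 0.250 between astrocytes and neurons, although some differently numbered libraries correlated more (astrocyte replicate 3 with microglia replicate 1 at 0.325, astrocyte replicate 1 with neuronal replicate 3 at 0.353). Sequences are from RefSeq (matched by miRNA name, 3 of 3), target sites and positions from GENCODE vM39 on GRCm39. The values of 1 target gene are not reported here.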

Additional observations from a re-analysis of the deposited data

How the results depend on the processing

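In microglia, the log2 fold changes of the members kept their direction in the settings run. With factors from mature miRNAs they were 1.15 (miR-221-3p), 1.44 (miR-222-3p) and 1.88 (miR-221-5p), and with 1 library left out they ranged from 1.46 to 1.67, 1.75 to 2.02 and 2.00 to 2.69. With library totals alone 2 of the 3 were called, without miR-221-5p, beside 29 of 4940 features called higher. In astrocytes factors from mature miRNAs gave −0.37, −0.34 and 0.39, so the sign of both 3p arms turned, as these factors set the typical miRNA equal between libraries. Leaving out 1 library gave 0.01 to 0.61, −0.01 to 0.67 and 0.65 to 1.49 in astrocytes, with miR-222-3p at −0.0076 without WT replicate 1. In neurons the ranges were 1.25 to 2.41 for miR-221-3p and −0.22 to 0.41 for miR-222-3p, at −0.22 without KIN replicate 1. For WT microglia over WT astrocytes they were −0.70 to 0.09 (miR-221-3p, at 0.0905 without astrocyte replicate 2), −1.48 to −0.61 (miR-222-3p) and −0.18 to 0.84 (miR-221-5p, at −0.17 without astrocyte replicate 1 and −0.18 without microglia replicate 3). For WT neurons over WT astrocytes they were −7.33 to −5.82 and −4.44 to −3.23, and factors from mature miRNAs gave −4.26 (miR-221-3p) and −1.64 (miR-222-3p).

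The count of called targets in astrocytes was 0 without the filter or with transcripts summed by gene, and 0 to 1 with a library left out. It was 0 in each of these fits in microglia and neurons. For the miRNA machinery 1 was called in astrocytes with transcripts summed by gene and 1 in microglia without the filter, and 0 to 1 in microglia with a library left out. X-linked miRNAs called were 4 with library totals in astrocytes, and 5 with DESeq2 and 0 with library totals in microglia. Over all features these settings called 475 of 5694, 379 of 4940 and 150 of 4940, in that order. With a library left out, 0 to 23 X-linked miRNAs were called in astrocytes and 0 to 5 in microglia. The difference of medians between transcripts with and without the site was −0.27 in astrocytes with a site of 8 letters and −0.23 with a mean of at least 10 counts. With transcripts without the site limited to the length quartiles of those with it, chosen after seeing the data, it was −0.12 in microglia, −0.0013 in astrocytes and 0.14 in neurons. In neurons it turned from 0.000595 to −0.0225 and −0.0445, and it was −0.0327, −0.0817, −0.0229, −0.0082, −0.0531 and −0.105 with each library left out in turn. With a library left out it ranged from −0.20 to −0.12 in astrocytes, −0.28 to −0.14 in microglia and −0.10 to −0.01 in neurons. The share of miR-222-3p differed by −0.62 to 1.95 percentage points in astrocytes (−0.54 without WT replicate 1, −0.62 and −0.35 without KIN replicates 1 and 2), 2.50 to 6.59 in microglia and −31.25 to −17.6 in neurons, and the 5p share by 0.69 to 1.17 in astrocytes and 0.95 to 2.12 in microglia. With pseudocounts of 0.5 and 5, chosen after seeing the data, 3 and 2 of the 5 miRNAs nearest to miR-221-3p remained, and 4 and 2 of those nearest to miR-222-3p. The cause of these shifts was not tested.

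In the main fits replicate numbers were not taken to pair the genotypes. The deviations were taken from means of 3 libraries and so are not independent, and their correlations cannot exclude such a pairing. Same-numbered WT and KIN libraries had correlations of −0.46, −0.56 and 0.37 in microglia, −0.02, 0.10 and 0.29 in astrocytes and −0.46, −0.02 and −0.17 in neurons, and not every library correlated best with its own number. With the replicate block the log2 fold changes of miR-221-3p and miR-222-3p were 1.59 and 1.86 in microglia. They were 0.30 and 0.32 in astrocytes and 1.71 and 0.15 in neurons. Of the 3 members 1, miR-222-3p, was called in microglia, beside 16 of 4940 features called higher. X-linked miRNAs called with the block were 13 of 43 tested in astrocytes and 0 of 41 in microglia. Over all features the block called 691 of 5694 and 49 of 4940, so nothing about X-linked miRNAs is read from these counts.

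Depth limits the neuronal values (0 to 22 counts of a member in a library), miR-221-5p and the targets. Fractions are bulk, with 3 libraries a group, and KIN replicate 1 stood apart in Xist. Fits without 1 library rest on 3 against 2.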
